A study of Mus musculus with 12 samples.

Results

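Pancreatic tumours of mice that had lost 1 copy of Cdh11 and had received gemcitabine were compared with tumours of untreated mice that carried both copies. The comparison holds 6 of the 12 RNA sequencing libraries of the study, 3 mice on each side, chosen by title. All 12 mice carried KPC alleles, which give a mouse model of pancreatic ductal adenocarcinoma, on a mixed C57BL/6 and 129 background. The untreated mice were KPC/CDH11+/+, and the treated ones were KPC/CDH11+/-. The libraries not in the comparison came from 3 untreated KPC/CDH11+/- mice and 3 gemcitabine-treated KPC/CDH11+/+ mice, and their values are given where they place a result. The labels give neither age nor sex, and neither the dose nor the timing of gemcitabine. Because both the genotype and the drug differ between the sides, their shares in a difference cannot be told apart from these 6 libraries alone.

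Cadherin 11, the product of Cdh11, is an adhesion protein of mesenchymal cells, and in pancreatic cancer it is found mainly on fibroblasts of the dense stroma. That stroma holds most of the tumour's collagen, and it surrounds duct-like cancer cells, remnants of acinar and islet tissue, vessels and immune cells. Gemcitabine is a cytidine analogue that cells import and phosphorylate before it blocks DNA synthesis. Whole tumour pieces were sequenced, so a lower level of a cell type's genes can mean fewer such cells or less RNA per cell, which cannot be told apart here.

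The libraries held between 39388328 and 56559413 counts, and 24065 of 52636 genes were tested. Levels are given as CPM, counts scaled to a common library size and adjusted for library composition but not for gene length, and differences as log2 of treated heterozygous over untreated wild-type, with the standard error (SE) of the fit. In this order the values of a gene are those of mice 1, 2 and 3 of a group. Both sides held the duct markers Krt8 (809 to 1689 CPM) and Epcam (151 to 310 CPM). Xist, the RNA made from a silenced X chromosome, was at 2816, 0.807 and 2655 CPM in the untreated wild-type mice and at 0.585, 1.12 and 1.00 CPM in the treated heterozygous mice. Y-linked Ddx3y was at 0, 72.1 and 0.118 CPM against 151, 76.5 and 76.4 CPM. So the comparison sets 2 Xist-high libraries and 1 Xist-low library against 3 Xist-low ones, and sex is partly mixed with the groups.

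At an adjusted p under 0.05 (edgeR quasi-likelihood test, Benjamini-Hochberg over all genes tested), 1 gene was higher in the treated heterozygous tumours, 0.00416% of those tested. No gene was lower (0%). The next smallest adjusted p was 0.663. At an unadjusted p under 0.05 there were 700 higher genes (2.91%) and 832 lower ones (3.46%), 1532 in all, where 1203 of 24065 would be expected with no difference. DESeq2 on the same counts called 63 genes higher (0.263%) and 58 lower (0.242%). The spread between mice was wide, with a biological coefficient of variation of 46.4%. Over all genes the median log2 difference was 0.01, and 50.8% of genes were above 0. All 3 treated heterozygous libraries were above all 3 untreated wild-type ones for 1689 genes (7.02%) and below them for 1831 (7.61%), and counts of such genes in the gene groups are to be read against those shares. Without any 1 mouse these counts were higher by construction, 2551 to 4068 genes above and 2647 to 3999 below. With 3 mice a side, an exact permutation test of a single value cannot give a two-sided p under 0.10, so only the model across all genes was used for tests.

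Cdh11 itself (chromosome 8, 102632095 to 102785642, minus strand, GRCm38) was at 225, 283 and 165 CPM in the untreated wild-type tumours and at 108, 142 and 72.0 CPM in the treated heterozygous ones. Every treated heterozygous library was below every untreated wild-type one. The log2 difference was -1.06 (95% interval -1.88 to -0.25, SE 0.372, edgeR adjusted p = 0.752), which is 0.478 times the wild-type level and did not pass the test. The gene was at 148, 115 and 73.7 CPM in the untreated heterozygous mice and at 142, 62.2 and 123 CPM in the treated wild-type mice. The treated wild-type values overlap those of both heterozygous groups, so the Cdh11 level alone does not separate the genotypes among treated mice.

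The single gene that passed the test was Trim12a, a member of the TRIM5 family of antiviral E3 ubiquitin ligases, in the middle of a cluster of related genes on chromosome 7 (104299894 to 104315466, minus strand). TRIM5 proteins bind incoming retroviral capsids, and mice hold several copies of the gene side by side. The promoters of 4 cluster members are printed, those of Trim12a, of Trim12c and Trim5, which are near-identical to it, and of Trim30d, whose groups lay apart, so that they can be compared. Each sequence covers 250 bases before and 30 bases after the gene start on GRCm38.p6, from RefSeq, at chr7:104315466-104315745 for Trim12a, chr7:104353320-104353599 for Trim12c, chr7:104288077-104288356 for Trim5 and chr7:104507820-104508099 for Trim30d, all on the minus strand. Capitals mark GAAANNGAAA or its reverse complement, the core of the element through which interferon acts on its target genes.
Trim12a: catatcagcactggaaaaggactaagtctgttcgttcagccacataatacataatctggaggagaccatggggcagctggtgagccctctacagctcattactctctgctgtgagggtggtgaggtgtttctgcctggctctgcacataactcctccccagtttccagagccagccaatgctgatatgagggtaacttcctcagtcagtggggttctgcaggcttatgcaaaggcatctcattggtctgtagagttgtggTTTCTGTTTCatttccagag
Trim12c: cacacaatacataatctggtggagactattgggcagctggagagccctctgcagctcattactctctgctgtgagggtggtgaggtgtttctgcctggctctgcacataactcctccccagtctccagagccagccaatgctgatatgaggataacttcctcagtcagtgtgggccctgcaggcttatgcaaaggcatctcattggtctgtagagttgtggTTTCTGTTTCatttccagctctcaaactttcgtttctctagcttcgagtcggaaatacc
Trim5: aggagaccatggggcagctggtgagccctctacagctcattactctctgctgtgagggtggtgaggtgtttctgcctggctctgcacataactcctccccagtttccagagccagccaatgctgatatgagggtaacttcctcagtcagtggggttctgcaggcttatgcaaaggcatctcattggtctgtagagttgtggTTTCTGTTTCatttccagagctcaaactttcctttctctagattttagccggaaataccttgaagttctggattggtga
Trim30d: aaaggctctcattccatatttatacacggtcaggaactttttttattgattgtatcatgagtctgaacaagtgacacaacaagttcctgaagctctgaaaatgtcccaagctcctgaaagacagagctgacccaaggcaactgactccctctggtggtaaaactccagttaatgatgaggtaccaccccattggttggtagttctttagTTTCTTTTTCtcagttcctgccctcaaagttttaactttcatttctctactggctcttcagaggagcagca

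The match began 10 bases after the gene start in Trim12a, and at positions -29, -49 and -41 from it in Trim12c, Trim5 and Trim30d. Trim12a and Trim5 shared an unbroken run of 241 bases that holds the match. The longest run shared by Trim12a and Trim12c was 71 bases and did not hold it. A shorter identical run in the printed sequences of Trim12a and Trim12c does hold the match. Trim30d shared at most 9 bases in a row with any of the other 3. Both strands were searched, over 300 bases per promoter. Of all 32851 promoters, 1131 (3.44%) held the motif. Counted by gene, it was found for 1079 of 27025 genes (3.99%), against 7 of the 11 genes of the Trim5 cluster (63.6%) and 13 of 21 interferon-response genes that had a promoter entry (61.9%). A match is a description of letters and no evidence of binding.

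Trim12a stood at 0.154, 0.369 and 0.118 CPM in the untreated wild-type tumours, from 7, 16 and 6 counts. The treated heterozygous tumours had 8.70, 11.0 and 9.65 CPM, from 431, 474 and 481 counts. The groups lie far apart, and the gene rose 45.6-fold, a log2 difference of 5.51 (95% interval 4.26 to 6.76, SE 0.568, edgeR adjusted p = 0.0199, higher in 3 of 3 mice). The call was lost when wild-type mouse 1 (edgeR adjusted p = 0.337), wild-type mouse 3 (0.0988), or heterozygous mouse 1 (0.0732), 2 (0.0541) or 3 (0.0846) was left out, while the log2 difference stayed between 5.22 and 6.16 without any 1 mouse.

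In the untreated heterozygous mice Trim12a was at 8.74, 16.8 and 20.2 CPM, and in the treated wild-type mice at 0.306, 0.0930 and 0.168 CPM. All 6 heterozygous libraries thus lay above all 6 wild-type ones. Its step was 6.15 for the genotype without drug (edgeR adjusted p = 0.0028), where 4 genes passed (0.0166%). With drug the genotype step was 5.67 (edgeR adjusted p = 0.0167), and Trim12a was again the single gene to pass (0.00416%). Across the drug its log2 differences were -0.16 in wild-type and -0.64 in heterozygous mice, and neither passed the test. These steps share libraries with the combined comparison and with each other.

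The near-identical copies bear on this gene. Trim12c stood at 22.6, 34.2 and 20.2 CPM against 21.4, 18.1 and 26.5 CPM, a difference of -0.22 (SE 0.338) with overlapping groups. Trim5 stood at 0.199, 0.231 and 0.118 CPM against 2.28, 2.54 and 5.30 CPM, a difference of 4.20 (SE 0.735, edgeR adjusted p = 0.663). Summed, the 3 copies gave 23, 34.8 and 20.4 CPM against 32.4, 31.7 and 41.4 CPM. That sum differed by 0.43 (SE 0.307, edgeR adjusted p = 0.828), and its groups overlap. The sum did not separate the groups as Trim12a did, and how reads were divided among the copies was not tested. Trim30d, a further antiviral member of the cluster, was at 0.728, 1.57 and 0.375 CPM against 4.30, 8.36 and 6.00 CPM (difference 2.80, SE 0.583, edgeR adjusted p = 0.745). It is a near-identical copy of Trim30a, and their sum was at 10.3, 29.4 and 7.83 CPM against 19.1, 34.6 and 36.7 CPM. The difference of that sum was 0.93 (SE 0.446, edgeR adjusted p = 0.785), with overlapping groups. Trim34a was at 4.72, 5.81 and 4.24 CPM against 7.79, 10.2 and 10.4 CPM (0.94, and 0.52 summed with its copy). Of the 11 cluster genes 4 lay above without overlap and 0 below, and without wild-type mouse 2 the count was 8.

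**Figure D1:**
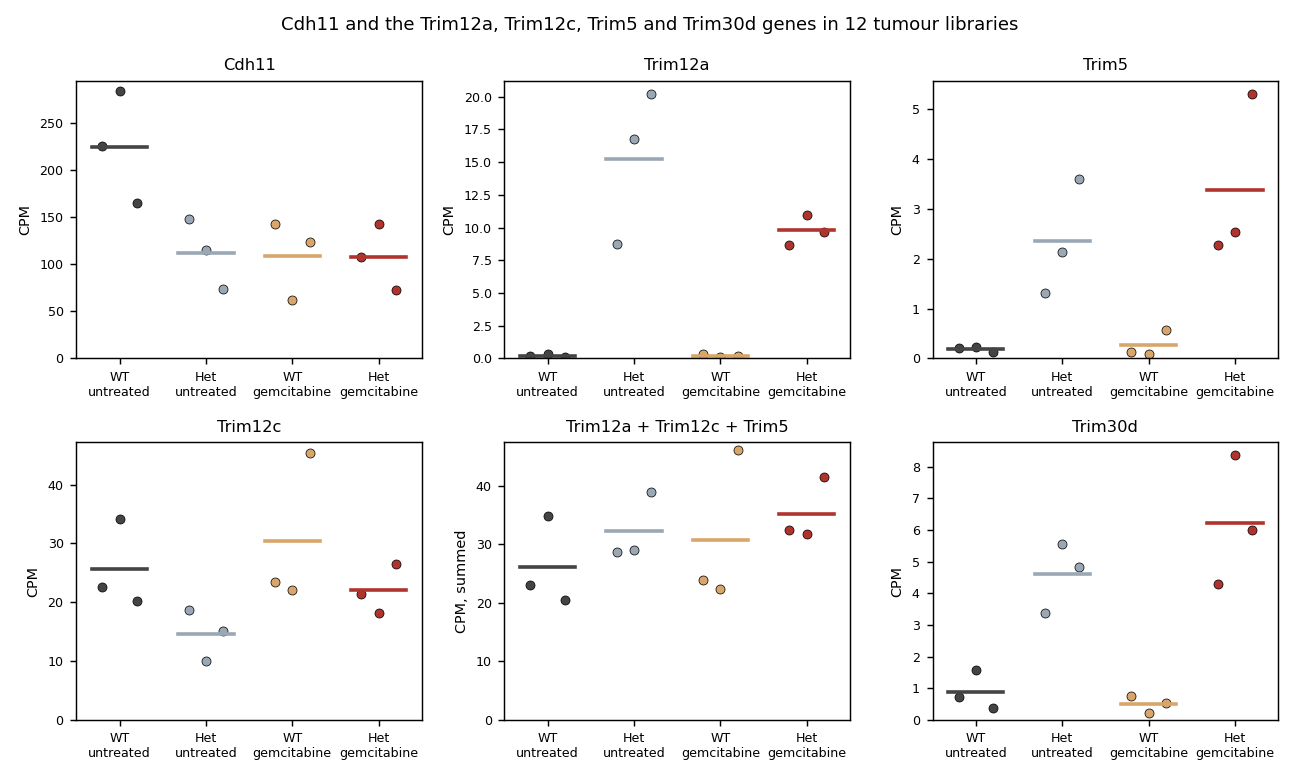
CPM of Cdh11, Trim12a, Trim5, Trim12c, the sum of the 3 Trim copies and Trim30d in all 12 libraries, on linear axes from 0; points are mice 1 to 3 of each group from left to right and bars are group means. Trim12a is at 8.70 CPM or above in all heterozygous mice and at 0.369 CPM or below in all wild-type mice, whereas the sum over its copies overlaps between groups.

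Behind Trim12a, the lower genes with the smallest p were Kdm2b, Draxin, Slitrk5, Rhob and Hspb8. None passed edgeR's test, and DESeq2 called all 5 lower. Kdm2b, a histone H3 lysine demethylase that recruits a Polycomb complex to CpG islands, stood at 76.0, 61.5 and 39.6 CPM against 22.4, 25.2 and 23.9 CPM (difference -1.31, SE 0.237, edgeR adjusted p = 0.663). The treated heterozygous values are close together and all under the wild-type ones. Draxin, a secreted axon guidance protein, was at 5.51, 11.9 and 5.62 CPM against 1.39, 1.05 and 1.49 CPM (-2.55, SE 0.471). Slitrk5, a neuronal membrane protein, had the largest of these 5 differences, -4.0 (SE 0.765), from 0.750, 1.18 and 3.23 CPM to 0.0807, 0.0932 and 0.140 CPM. Rhob, a small GTPase of endosomes, was at 188, 188 and 226 CPM against 84.5, 55.8 and 109 CPM (-1.27, SE 0.261). Hspb8, a small heat-shock chaperone, was at 36.3, 40.0 and 41.7 CPM against 21.3, 14.5 and 16.4 CPM (-1.18, SE 0.245). None of these 5 genes overlapped between groups. Kdm2b and Draxin overlap a gene on the other strand, Rnf34 and Mad2l2, and no source states whether strand was used in counting.

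Among the higher genes with the smallest p, besides the Trim genes, were Rps13 and Snurf, which DESeq2 also called higher, as it did Trim5 and Trim30d. Rps13, a protein of the small ribosomal subunit, was at 67.2, 37.0 and 40.6 CPM against 138, 114 and 109 CPM, a difference of 1.32 (SE 0.277, edgeR adjusted p = 0.745). Summed with its 5 near-identical copies it gave 0.12 (SE 0.258) with overlapping groups, so the gene's own value is uncertain. Snurf, the upstream reading frame of the imprinted Snrpn transcript, had 0 counts in the wild-type libraries and 0.101, 0.373 and 0.722 CPM in the treated heterozygous ones, and it shares its strand and position with Snrpn.

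No member of any of the 92 gene lists and families passed the test, save Trim12a in the 2 that hold it. The lists are therefore described by how many members lay on each side and by their median log2 difference, beside the 0.01 of all genes.

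**Figure D2:**
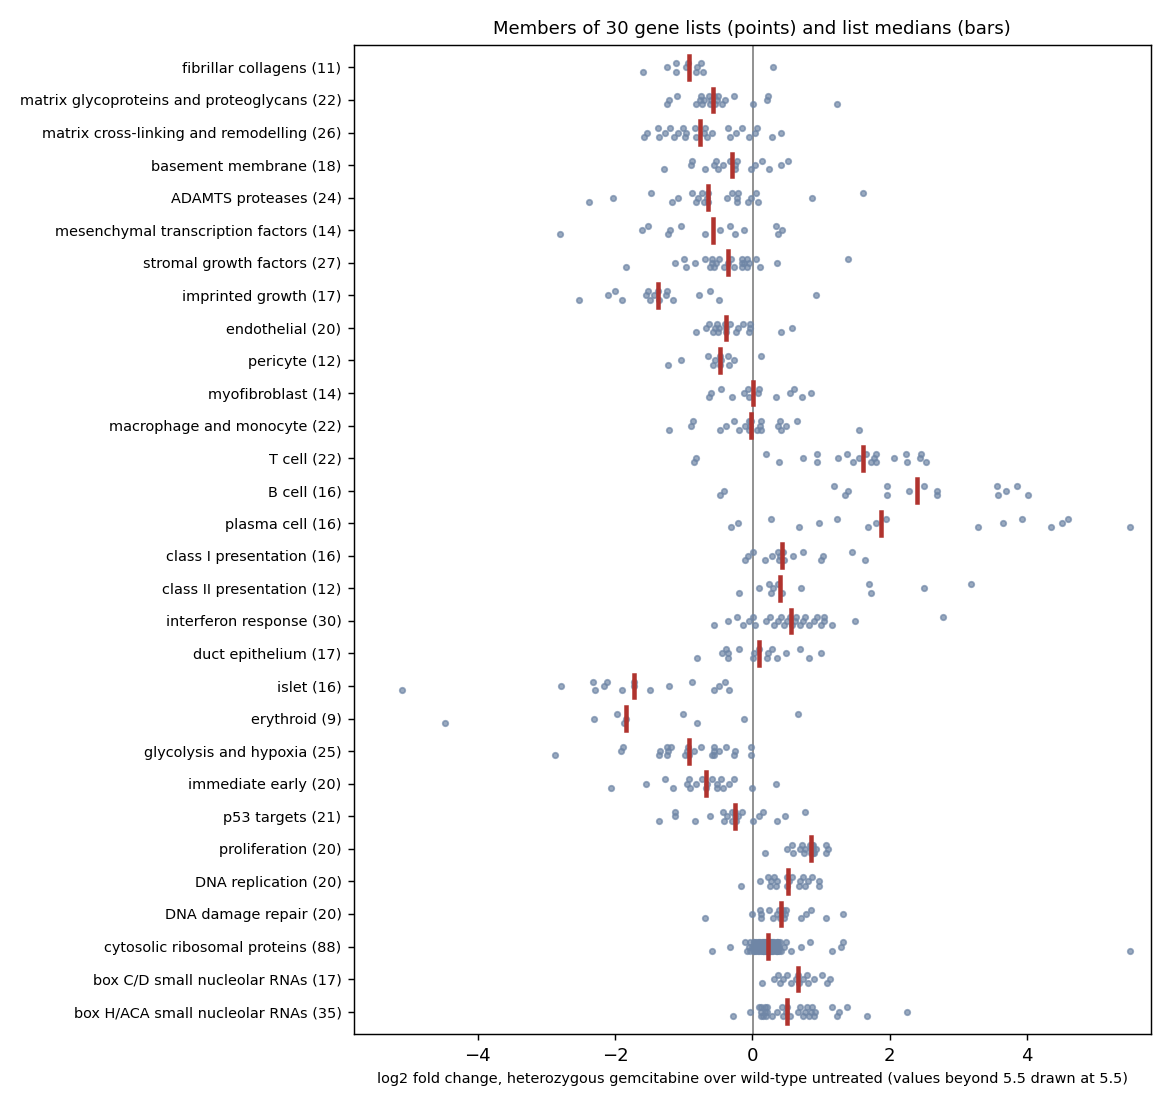
Log2 differences, treated heterozygous over untreated wild-type, of the members of 30 gene lists; points are members, bars are list medians, the grey line is the median of all genes, and values beyond 5.5 are drawn at 5.5. The B cell, plasma cell and T cell lists lie to the right, and the islet, erythroid and imprinted lists to the left. No member drawn passed the test.

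Genes of the collagen-rich stroma lay lower in the treated heterozygous tumours as a group. Of 11 fibrillar collagen chains, 10 had a negative difference, with a median of -0.93. Col1a1, the main chain of type I collagen, was at 4074, 3826 and 6505 CPM against 2493, 1715 and 573 CPM (difference -1.59, SE 0.541, edgeR adjusted p = 0.752). Its partner Col1a2 was at 2860, 3790 and 4944 CPM against 2291, 2076 and 990 CPM (-1.11, SE 0.425). Col3a1 of type III collagen was at 2730, 4251 and 4665 CPM against 2679, 2206 and 1749 CPM (-0.81). In all 3 the groups did not overlap, narrowly so for Col3a1. The summed CPM of the list ran from 11900 to 19600 in the wild-type libraries and from 4350 to 9600 in the treated heterozygous ones, and heterozygous mouse 3 was the lowest. Of the chains, 4 of 11 chains lay below without overlap (between 4 and 6 without any 1 library) and 0 above.

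The other matrix lists leaned the same way. Of 22 glycoproteins and proteoglycans 18 were negative (median -0.58), of 26 cross-linking and remodelling genes 22 (median -0.77), and of 24 ADAMTS proteases 20 (median -0.65). With the acinar covariate the medians were -0.26, -0.59 and -0.16, and that of the cross-linking list was -0.23 without wild-type mouse 3. Lum, a proteoglycan that spaces collagen fibrils, was at 209, 175 and 178 CPM against 117, 79.8 and 65.3 CPM (-1.10, SE 0.314). Fap, the surface protease of activated fibroblasts, was at 17.4, 33.3 and 20.1 CPM against 6.74, 11.6 and 6.18 CPM (-1.53, SE 0.412). Adamts15, a protease of proteoglycans, was at 85.8, 180 and 57.5 CPM against 21.9, 26.9 and 13 CPM (-2.39, SE 0.668). Loxl1, which cross-links elastin, was at 120, 216 and 129 CPM against 82.7, 64.8 and 44.9 CPM (-1.27). Col6a6, a chain of type VI collagen, was at 3.71, 7.68 and 4.93 CPM against 1.57, 2.17 and 2.51 CPM (-1.38). None of these 5 overlapped, and none passed edgeR's test (adjusted p = 0.745 for each). Col6a6 and Adamts15 were among the genes DESeq2 called lower. Members below without overlap numbered 6, 8 and 9 in the 3 lists, and up to 10 (without heterozygous mouse 3), 12 (without wild-type mouse 1 or 2 or heterozygous mouse 1) and 13 (without heterozygous mouse 1).

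Of the basement membrane genes 13 of 18 were negative with a median of -0.29 (-0.10 with the acinar covariate), and 4 lay below without overlap, or 9 without wild-type mouse 1. Nid1, which links laminin to type IV collagen, was at 458, 481 and 714 CPM against 342, 312 and 236 CPM (-0.89), and Lama2, a laminin chain, was at 133, 175 and 95.7 CPM against 61.6, 56.0 and 48.1 CPM (-1.28). Myofibroblast contractile genes were split evenly, 7 up and 7 down, with a median of 0.01 whose sign turned under DESeq2's size factors. Of these only Mylk, the myosin light chain kinase, lay apart, at 146, 200 and 192 CPM against 118, 116 and 118 CPM (-0.61).

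The fibroblast lists differed among themselves. Of 17 inflammatory fibroblast genes 11 were negative with a median of -0.22 (0.37 without wild-type mouse 2), and 2 lay below and 1 above without overlap. One of the lower ones, Pdgfra, the platelet-derived growth factor receptor of fibroblasts, was at 272, 293 and 196 CPM against 103, 80.6 and 77.0 CPM (-1.55, SE 0.502). Prrx1, a homeobox factor of mesenchyme, was at 176, 178 and 158 CPM against 81.2, 53.4 and 44.8 CPM (-1.51, SE 0.449). Hic1, a repressor found in quiescent mesenchymal cells, was at 17.7, 26.0 and 22.4 CPM against 9.63, 13.5 and 9.07 CPM (-1.04). For both factors every untreated wild-type library lay above every treated heterozygous one. The treated wild-type mice had 71.6, 44.3 and 57.2 CPM of Prrx1 and 18.1, 9.37 and 9.95 CPM of Hic1, which overlap the treated heterozygous values. Prrx1 and Hic1 belong to a list of 14 mesenchymal transcription factors with 11 negative and a median of -0.58. Of these 14, 4 lay below without overlap, or 7 without wild-type mouse 3 and 8 without heterozygous mouse 3. Of 12 stellate cell and retinoid genes 8 were negative, with a median of -0.73. Lrat, which stores retinol as ester in stellate cells, was at 7.28, 8.81 and 9.84 CPM against 1.78, 2.54 and 4.31 CPM (-1.59, SE 0.612, edgeR adjusted p = 0.752). In the untreated heterozygous mice Lrat was lower still, at 0, 0.173 and 0.119 CPM.

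Growth factors and their binding proteins from the stroma were negative in 23 of 27 cases, with a median of -0.35 and 7 below without overlap (up to 11, without heterozygous mouse 1). Igfbp3, which binds insulin-like growth factors, was at 968, 754 and 1158 CPM against 356, 171 and 280 CPM (-1.84, SE 0.519, edgeR adjusted p = 0.745). Igf1 was at 92.1, 122 and 77.6 CPM against 51.5, 50.1 and 46.8 CPM (-0.97). Another binding protein, Igfbp5, went the other way, at 49.2, 75.5 and 42.8 CPM against 96.0, 217 and 127 CPM (1.39, SE 0.534). Summed CPM of the list was 3350 to 3870 in wild-type and 1810 to 2380 in treated heterozygous libraries. Among complement and clotting genes, C2 was at 130, 195 and 151 CPM against 58.5, 42.4 and 45.6 CPM (-1.70). The C1 inhibitor Serping1 was at 476, 567 and 414 CPM against 236, 232 and 170 CPM (-1.19). Thrombomodulin, Thbd, was at 45.7, 51.2 and 46.1 CPM against 22.3, 24.7 and 27.0 CPM (-0.95). Each was lower in all 3 treated heterozygous mice, in a list with 16 of 27 negative and a median of -0.29, or 0.18 without wild-type mouse 2.

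Of 17 imprinted genes that regulate growth, 16 were negative with a median of -1.38, and 10 lay below without overlap (10 to 15 without any 1 library). Cdkn1c, a cyclin-dependent kinase inhibitor, was at 9.90, 20.8 and 37.3 CPM against 4.20, 2.75 and 4.89 CPM (-2.52, SE 0.554, edgeR adjusted p = 0.745), and DESeq2 called it lower. Grb10, an adaptor that dampens insulin signalling, was at 116, 147 and 174 CPM against 47.3, 59.0 and 63.1 CPM (-1.37, SE 0.389). Meg3, a noncoding RNA, was at 83.1, 79.2 and 345 CPM against 50.3, 58.1 and 18.9 CPM (-2.0, and -2.01 summed with a near-identical copy). The highest level of Cdkn1c and of Meg3 was in wild-type mouse 3, which also had the most acinar RNA. With the acinar level as a covariate the median of the list was -0.35, and that of the fibrillar collagens was -0.27.

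**Figure D3:**
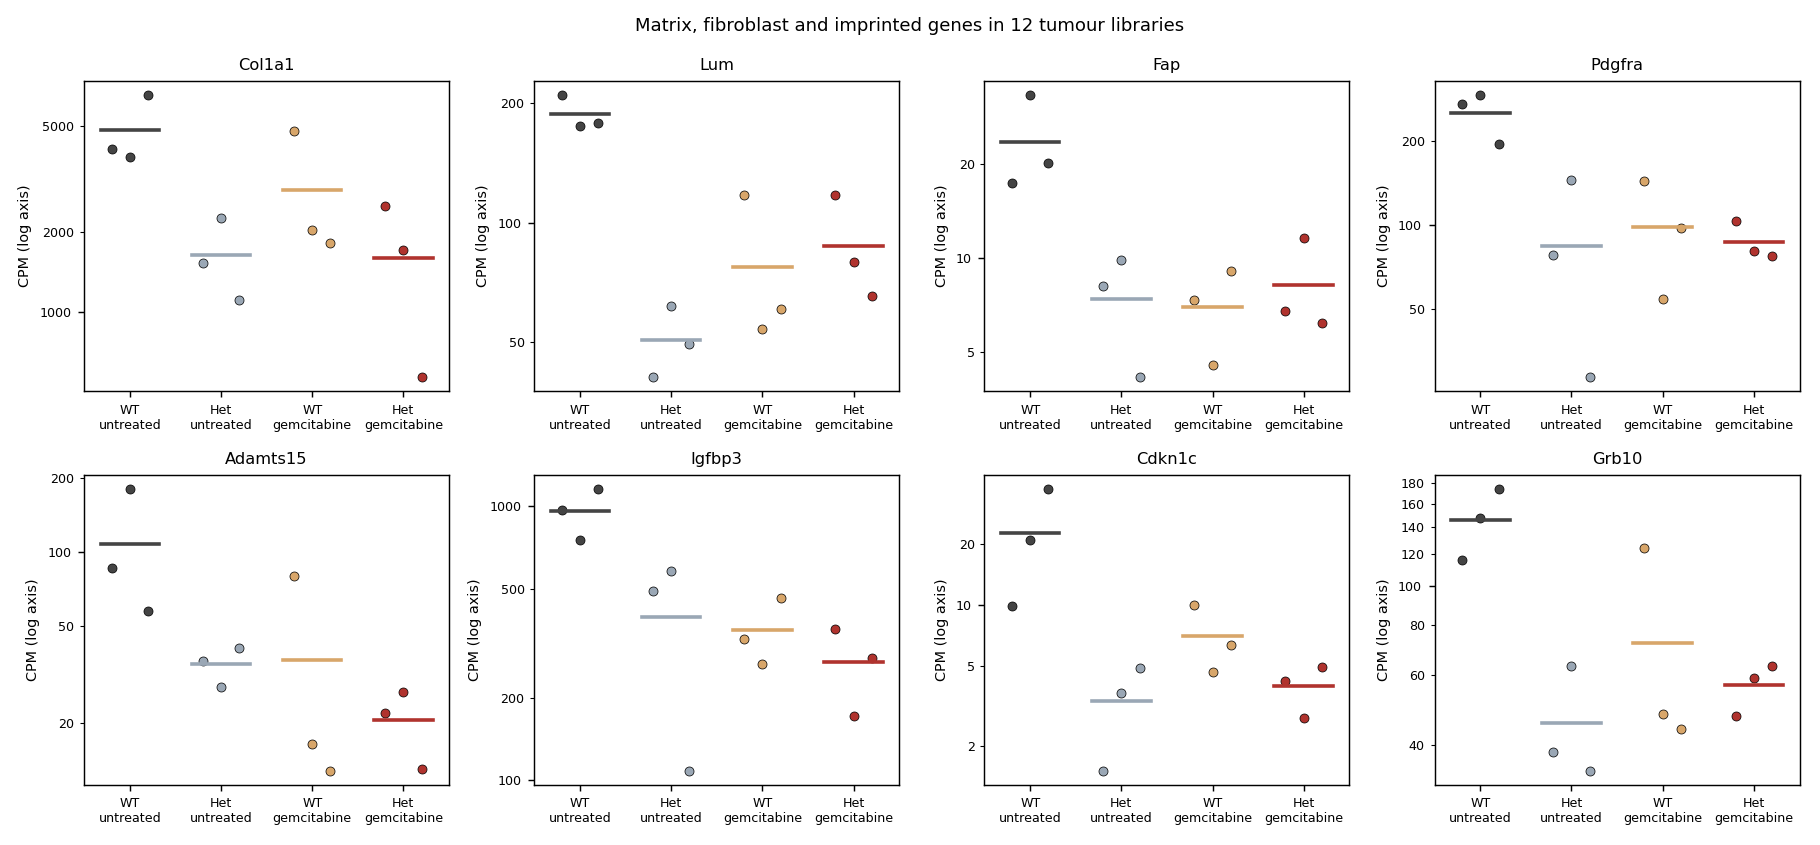
CPM on log axes of Col1a1, Lum, Fap, Pdgfra, Adamts15, Igfbp3, Cdkn1c and Grb10 in all 12 libraries; points are mice 1 to 3 of each group from left to right and bars are group means. In each panel the 3 treated heterozygous mice lie below the 3 untreated wild-type mice. The other 2 groups reach into the untreated wild-type range in some panels, as in Col1a1, where treated wild-type mouse 1 is at 4777 CPM.

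Of 20 endothelial genes 18 were negative with a median of -0.38, and of 12 pericyte genes 11 with a median of -0.47. Without wild-type mouse 2 the medians were -0.06 and -0.04, with 8 and 6 members positive. With all mice 1 of each lay below without overlap (at most 4 and 3 without any 1 library, the former without wild-type mouse 3 and the latter without heterozygous mouse 1 or 3). Cdh5, the endothelial cadherin, was at 75.9, 97.9 and 97.8 CPM against 56.5, 76.8 and 57.3 CPM (-0.51, groups overlapping). Of 16 Notch pathway genes 11 were negative with a median of -0.23, and 4 lay below without overlap. Among them the endothelial genes Notch4 and Dll4, named for their small p, were tighter. Notch4, a receptor of arterial endothelium, was at 31.8, 46.0 and 47.3 CPM against 25.9, 26.8 and 27.0 CPM (-0.65, SE 0.181), and its ligand Dll4 was at 16.1, 17.5 and 15.8 CPM against 8.96, 10.7 and 10.6 CPM (-0.71, SE 0.295).

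Antibody genes showed the largest positive medians, carried by 2 of the 3 treated heterozygous mice. All 12 immunoglobulin constant genes were positive (median 4.0), as were 69 of 72 heavy variable segments (median 3.42) and 64 of 65 kappa variable segments (median 3.81). Without heterozygous mouse 3 the medians were 2.72, 2.97 and 2.94. The summed CPM of the constant genes was 104, 336 and 50.8 in the untreated wild-type mice and 98.0, 1820 and 4180 in the treated heterozygous mice. Heterozygous mouse 1 was within the wild-type range, and mice 2 and 3 were above the other 10 libraries, in which the sum reached 336. None of the constant genes was free of overlap, against 10 of 12 without heterozygous mouse 1 and 4 without wild-type mouse 2. Igha, the heavy chain of IgA, was at 50.4, 77.2 and 23.1 CPM against 59.0, 564 and 851 CPM (3.29, SE 0.940, edgeR adjusted p = 0.745). Ighg2c, that of IgG2c, was at 0.794, 3.11 and 2.78 CPM against 1.76, 51.2 and 628 CPM (6.67, SE 1.83). DESeq2 called Igha, Ighg2c, 6 heavy and 13 kappa variable segments higher. Jchain, which joins IgA and IgM units, was at 9.13, 23.5 and 3.14 CPM against 9.87, 159 and 281 CPM (3.65, SE 1.15).

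B and T cell genes showed the same split between mice. Ms4a1, the B cell antigen CD20, was at 0.176, 0.646 and 0.217 CPM against 0.182, 8.13 and 5.16 CPM (3.69, SE 1.20, edgeR adjusted p = 0.752). Cd79a, a part of the B cell receptor, was at 0.265, 0.738 and 0.0986 CPM against 0.444, 6.83 and 5.76 CPM (3.56). Again heterozygous mouse 1 matched the wild-type range. The 16 B cell genes had a median of 2.40 with 14 positive, and members above without overlap numbered 1, or 14 without heterozygous mouse 1 and 4 without wild-type mouse 2. The 22 T cell genes had a median of 1.61 (1.00 with the Xist covariate) with 20 positive, and the count was 1, or 19 and 8 without those mice. The summed CPM of the T cell list did not share this direction, at 236, 180 and 183 against 141, 200 and 153 (mean 200 against 165). Cd28, the co-stimulatory receptor of T cells, was at 0.397, 0.807 and 0.335 CPM against 0.606, 3.63 and 4.67 CPM (2.53, SE 0.684). Cd8a of cytotoxic T cells was at 0.618, 0.669 and 0.434 CPM against 0.323, 3.84 and 1.85 CPM (1.80). Macrophage genes lay on both sides, 10 up and 12 down, and Csf1r was at 90.3, 383 and 163 CPM against 152, 238 and 234 CPM.

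Antigen presentation and interferon genes were positive by small amounts. Of 16 class I genes 14 were positive (median 0.43), of 12 class II genes 11 (median 0.40) and of 30 interferon-response genes 25 (median 0.56). H2-T23, which encodes the non-classical class I molecule Qa-1, was at 4.87, 6.99 and 13.4 CPM against 18.6, 25.9 and 34.1 CPM (1.64, SE 0.394, edgeR adjusted p = 0.745, or 1.17 summed with a near-identical copy). H2-Eb1, a class II chain, was at 0.596, 5.76 and 25.8 CPM against 24.8, 179 and 89.6 CPM (3.19), with overlap. Both H2 genes were high in the untreated heterozygous mice too, H2-T23 at 29.2 to 55.6 CPM and H2-Eb1 at 16.7 to 174 CPM, and low in the treated wild-type mice, at 4.70 to 6.32 CPM and 0.534 to 1.01 CPM. Both lie in the major histocompatibility complex. Oas3, a sensor of double-stranded RNA, was at 0.640, 0.669 and 0.335 CPM against 1.13, 6.08 and 4.03 CPM (2.77, SE 1.19). Members above without overlap numbered 5 of 30 interferon genes and 1 of 16 class I genes, or 14 and 11 without wild-type mouse 2, and 12 and 7 without heterozygous mouse 1. With Xist as a covariate the median was -0.05 for the interferon list and -0.12 for the class I list. The class II median was -0.03 with Xist, -0.09 without wild-type mouse 1 and 2.3 without wild-type mouse 2.

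Of 32 chemokine genes 25 were positive (median 0.56, or 0.11 with the Xist covariate), and of 19 cytokines 12 (median 0.37, or -0.11 with the acinar covariate). In each list 1 gene lay above without overlap, a share below that of all genes. Tnf was at 0.970, 7.12 and 1.10 CPM against 9.85, 16.1 and 10 CPM (1.97, SE 0.799). Cxcl1, which attracts neutrophils, was at 6.22, 6.66 and 2.58 CPM against 9.55, 45.1 and 9.91 CPM (2.06, SE 0.761), and Il18r1, a chain of the interleukin 18 receptor, was at 9.75, 14.1 and 7.16 CPM against 58.3, 40.3 and 19.1 CPM (1.93, SE 0.575). In the treated wild-type mice Tnf was at 2.25 to 14.3 CPM and Il18r1 at 16.4 to 64.8 CPM.

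**Figure D4:**
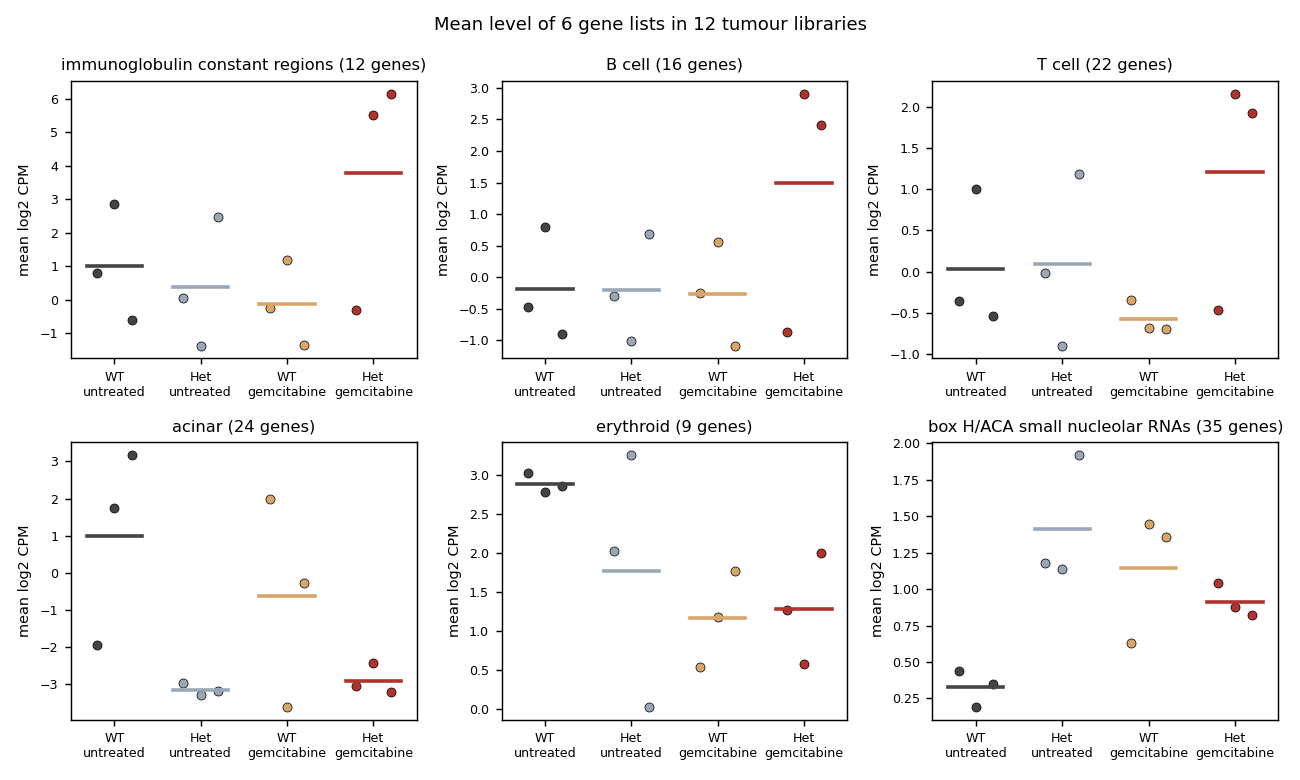
Mean log2 CPM per library over the immunoglobulin constant, B cell, T cell, acinar, erythroid and box H/ACA lists; points are mice 1 to 3 of each group from left to right and bars are group means. Treated heterozygous mice 2 and 3 are high in the 3 lymphoid panels while mouse 1 is not, and in the acinar panel untreated wild-type mice 2 and 3 and treated wild-type mouse 1 are the highest.

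Digestive enzyme genes of acinar cells had the most negative median, -7.07, with all 24 below 0 and 13 below without overlap (23 without wild-type mouse 1). Ctrb1, a chymotrypsinogen, was at 0.816, 87.9 and 271 CPM against 0.121, 0.466 and 0 CPM (-9.29, SE 2.55, edgeR adjusted p = 0.745), and Cpa1, a carboxypeptidase, was at 0.419, 14.7 and 38.0 CPM against 0.0807, 0.140 and 0.120 CPM (-7.26, SE 1.96). The difference is one of wild-type mice 2 and 3, since wild-type mouse 1 was close to the treated heterozygous level. The summed CPM was 14.8, 244 and 735 against 9.53, 18.6 and 6.00, and Prss1 had counts in 1 library alone, wild-type mouse 3. DESeq2 called 8 of the acinar genes lower, Ctrb1 and Cpa1 among them. Islet hormone and granule genes were all negative too (16 of 16, median -1.72), with 1 below without overlap (up to 5, without wild-type mouse 1), glucagon, Gcg, at 4.48, 101 and 29.6 CPM against 0.989, 2.89 and 0.0602 CPM (-5.11). With the acinar level as a covariate the islet median was 1.09. The part of the acinar level in the other differences was not tested beyond that covariate.

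Red blood cell genes lay mostly lower in the treated heterozygous mice. Slc4a1, the anion exchanger of red cells, was at 11.8, 2.14 and 5.48 CPM against 0.0404, 0.117 and 0.702 CPM (-4.47, SE 1.31, edgeR adjusted p = 0.745), and DESeq2 called it lower. Hba-a1, an alpha-globin, was at 57.1, 77.9 and 102 CPM against 14.1, 10.2 and 23.6 CPM (-2.31, and -2.08 summed with Hba-a2). Of 9 erythroid genes 8 were negative (median -1.84) and 6 lay below without overlap, a count that was 6 without any 1 library as well. The summed CPM was 320 to 531 against 46.7 to 170, and the treated wild-type mice had 37.0 to 126, while the untreated heterozygous mice ranged from 27.3 to 692.

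Tumour epithelium showed no common direction. Of 17 duct genes 11 were positive (median 0.10) and of 20 mucin and trefoil genes 9 (median -0.01). Krt7, a duct keratin, was at 519, 445 and 556 CPM against 960, 858 and 632 CPM (0.69, SE 0.421). Tff1, a secreted trefoil peptide, was at 118, 196 and 79.4 CPM against 31.0, 43.2 and 9.57 CPM (-2.23, SE 0.845). Gata6, a factor of the classical tumour subtype, was at 48.4, 20.5 and 59.1 CPM against 22.1, 10.1 and 14.3 CPM (-1.46, with overlap), whereas Pdx1, a factor of pancreas progenitors, was at 12.7, 8.23 and 3.47 CPM against 18.5, 20.5 and 17.8 CPM (1.22). Squamous genes were split, with 6 of 12 positive and 6 negative, and 3 lay above and 3 below without overlap (25.0% each). Ivl, involucrin of the cornified envelope, was at 65.9, 57.6 and 95.1 CPM against 21.3, 40.3 and 13.7 CPM (-1.54, SE 0.383), and the basal keratin Krt17 was at 1.92, 7.59 and 3.49 CPM against 0.162, 0.792 and 0.201 CPM (-3.49). Dsc3, a desmosomal cadherin of stratified epithelium, was at 0.0441, 0.0922 and 0.118 CPM against 0.121, 4.19 and 4.59 CPM (5.08, SE 1.19), which again rests on heterozygous mice 2 and 3. The claudins Cldn9 and Cldn6 of the tight junction differed in opposite directions, at 0.419, 0.530 and 0.355 CPM against 4.46, 8.04 and 27.4 CPM (4.93) and at 112, 98.9 and 140 CPM against 1.68, 64.7 and 8.79 CPM (-2.22). Wnt10a, a secreted Wnt ligand, was at 2.29, 2.93 and 7.99 CPM against 26.3, 28.2 and 18.2 CPM (2.46, SE 0.707, edgeR adjusted p = 0.745). It went against most of its list, in which 20 of 27 Wnt and Hedgehog genes were negative. The median of that list was -0.47 (-0.06 with the Xist covariate), with 2 members above and 7 below without overlap.

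Glycolysis and hypoxia genes were negative in all 25 cases with a median of -0.93, but 1 lay below without overlap. Without wild-type mouse 2, which was low, the count was 18. Without wild-type mouse 3, which was high, the median was -0.07 and 8 members were positive. Adm, adrenomedullin, was at 34.3, 9.66 and 95.7 CPM against 7.43, 3.59 and 8.09 CPM (-2.87, SE 1.39), and Bnip3, a mitophagy receptor, was at 144, 29.2 and 373 CPM against 78.8, 34.5 and 32.2 CPM (-1.91). The wild-type values of both genes were lowest in mouse 2 and highest in mouse 3. Immediate early genes, the first to respond to growth factors, were negative in 18 of 20 cases (median -0.67), with 5 below without overlap 15 without wild-type mouse 2 and 9 without heterozygous mouse 1. Fos was at 158, 44.6 and 113 CPM against 38.6, 41.1 and 28.1 CPM (-1.55), Jun at 63.4, 59.1 and 94.0 CPM against 45.9, 35 and 41.6 CPM (-0.82), and Ier2 at 41.8, 24.5 and 23.6 CPM against 18.9, 20 and 17.3 CPM (-0.68, SE 0.223). Hmox1, haem oxygenase, was at 34.3, 36.6 and 85.6 CPM against 20.4, 18.8 and 16.9 CPM (-1.48).

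Cell cycle genes lay higher, though none passed the test. All 20 proliferation genes were positive with a median of 0.86, which was 0.23 with the Xist covariate and 0.36 with the acinar covariate. There were 2 above without overlap, 16 without heterozygous mouse 1, 6 without wild-type mouse 2 and 4 without wild-type mouse 3. Cdk1, the kinase that drives mitosis, was at 11.8, 15.1 and 13.6 CPM against 18.6, 32.6 and 22.2 CPM (0.86, SE 0.550), and Top2a, the mitotic topoisomerase, was at 34.1, 65.8 and 54.2 CPM against 57.1, 163 and 106 CPM (1.08, with overlap). Heterozygous mouse 2 was the highest of the 6 in both. Of 20 DNA replication genes 19 were positive (median 0.52, or 0.25 with the Xist covariate) and of 20 repair genes 18 (median 0.42). Targets of p53 were mostly negative (15 of 21, median -0.25). Cdkn1a, the p21 inhibitor, was at 37.2, 40.2 and 71.7 CPM against 26.5, 21.6 and 20.4 CPM (-1.12, SE 0.461), and the pro-apoptotic Bbc3 was at 4.43, 6.43 and 7.26 CPM against 3.23, 3.05 and 2.05 CPM (-1.12, SE 0.348).

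Genes that handle gemcitabine showed no common direction, with 13 of 22 positive and a median of 0.08. Dck, the kinase that activates the drug, was at 9.37, 11.3 and 18.3 CPM against 7.51, 17.0 and 14.1 CPM (-0.01, SE 0.397). Slc29a1, the transporter that imports it, was at 25.4, 57.4 and 59.7 CPM against 51.0, 48.1 and 64.8 CPM (0.20, SE 0.544). For both genes the groups overlap. Rrm1 (0.14, SE 0.283) and Rrm2 (-1.11, SE 0.813), the subunits of ribonucleotide reductase that the drug inhibits, and Cda (-0.58, SE 0.500), the deaminase that inactivates it, also overlapped. These 5 were named for their role, with their values known. Tk1, thymidine kinase, was at 17.4, 22.3 and 18.1 CPM against 28.0, 37.0 and 26.5 CPM (0.66, SE 0.254), and the exporter Abcc5 was at 131, 103 and 206 CPM against 87.6, 61.0 and 91.1 CPM (-0.88, SE 0.342). These 2 did not overlap between groups, and their edgeR adjusted p was 0.752.

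Small nucleolar RNAs, which guide the modification of ribosomal RNA, lay higher as a class, though none passed the test. Of 35 box H/ACA RNAs 33 were positive (median 0.51, or 0.17 with the acinar covariate) and 18 lay above without overlap (18 to 25 without any 1 library). Of 17 box C/D RNAs all were positive (median 0.67) and 7 lay above, or 11 without heterozygous mouse 2. Over all 161 annotated small nucleolar RNAs, 33.5% lay above without overlap and 0 below, against 7.02% and 7.61% of all genes. Snord22 was at 28.6, 25.9 and 35.2 CPM against 56.4, 43.1 and 40.0 CPM (0.64, SE 0.177, edgeR adjusted p = 0.745), and Snora41 was at 0.0882, 0.184 and 0.177 CPM against 0.666, 1.02 and 0.481 CPM (2.25, SE 0.525). They lie within the longer genes Snhg1 and Eef1b2. Rn7sk, a small RNA that holds back transcription elongation, was at 15570, 14960 and 14870 CPM against 20520, 20000 and 19610 CPM (0.41, SE 0.211), whereas the noncoding RNA Gm26917 was at 21330, 13440 and 18010 CPM against 6697, 6686 and 2926 CPM (-1.69, SE 0.544).

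Ribosomal protein genes leaned upward slightly, with 80 of 88 cytosolic ones positive at a median of 0.23 (0.04 with the acinar covariate) and 68 of 77 mitochondrial ones at 0.19. Of the cytosolic genes 8 lay above without overlap, or 54 without wild-type mouse 3 and 26 without heterozygous mouse 1. Rps3a3, counted in this family by its symbol, is annotated as a processed pseudogene and overlaps Pde4d on the same strand. It was at 0.596, 0.277 and 0.651 CPM against 119, 140 and 109 CPM (7.90, SE 2.21, edgeR adjusted p = 0.745). Summed with its 6 copies the difference was 0.17 with overlapping groups (484 to 666 CPM against 565 to 704 CPM). Of 15 genes of the mitochondrial genome 14 were positive (median 0.41). mt-Nd2, a subunit of complex I, was at 140, 113 and 95.6 CPM against 218, 196 and 140 CPM (0.67, with wild-type mouse 1 and heterozygous mouse 3 touching).

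The 2 other groups allow the single changes to be set beside the combined one, and all such steps share libraries. For the fibrillar collagens the median was -1.15 for genotype without drug, -0.32 for the drug in wild-type mice and -0.93 for both together. Matrix glycoproteins and proteoglycans gave -0.98, -0.72 and -0.58 in that order, and cross-linking and remodelling genes -1.01, -0.64 and -0.77. For ADAMTS proteases the values were -0.85, -0.76 and -0.65, for mesenchymal transcription factors -1.05, -0.78 and -0.58, and for endothelial genes -0.83, -0.7 and -0.38. The imprinted list gave -1.52, 0.03 and -1.38 in that order. For box H/ACA RNAs the values were 1.13, 0.92 and 0.51. Immunoglobulin constant genes gave -0.29, -0.98 and 4.0, B cell genes -0.02, -0.04 and 2.40, and T cell genes 0.33, -0.78 and 1.61. Acinar genes gave -7.27, -1.63 and -7.07, and glycolysis genes -0.04, -0.18 and -0.93. These medians were not tested against each other, and at the level of single genes only BC023719 and Gm10260 departed from the sum of the single changes in edgeR's test (0.00831% of genes).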

How the data were processed

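RNA from snap-frozen pancreatic tumours was purified with the Direct-zol kit and sequenced after depletion of ribosomal RNA with the TruSeq Stranded Total RNA kit, per the labels' protocols. The authors deposited expected counts per gene for each of 12 libraries, made with RSEM on GRCm38, per the submitters' processing notes. The RSEM version, aligner, annotation and strand setting are not known here. All deposited expected counts were whole numbers, and rounding left them as they were. Gene IDs were matched to GENCODE M21, where 52489 of 52636 were found.

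Genes were kept with edgeR's filterByExpr (minimum count 10, 4 groups), and libraries were scaled by TMM. edgeR 4.0.16 fitted a robust quasi-likelihood model to all 12 libraries with 1 mean per group, so all groups share 1 estimate of the spread, and each adjusted p is Benjamini-Hochberg over all 24065 genes with a threshold of 0.05. R 4.3.3, limma 3.58.1 (voom) and DESeq2 1.42.0 served for alternatives, beside other scalings, filters, covariates and left-out libraries. CPM is adjusted by TMM, and mean log2 CPM used a prior count of 2. Intervals are 95% intervals. The scripts were tested on simulated counts with known changes in well-counted genes. Of 50 genes changed 2-fold, 4 were called (8%). Of 50 changed 4-fold 32 were called (64%), and of 50 changed 16-fold 45 (90%). There were 6 false calls among the unchanged genes. Most 2-fold changes were thus missed in the simulated counts. Each library is 1 mouse, so p-values measure the spread between mice. No 2 libraries of the same group agreed within counting noise.

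Near-identical copies are genes whose transcripts match at 95% identity over 50% of their length, and their counts were also summed. Genes named are Cdh11, those past the test (or the 5 with the smallest p in a direction where fewer than 5 passed, without predicted genes), up to 4 members per list or family with the smallest p, and a few for their role. The members and lists were chosen with earlier results of these data known.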

Additional observations from a re-analysis of the deposited data

Results flagged for a closer look

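For 2 genes the change with gemcitabine differed between the genotypes in edgeR's test of that difference, at an adjusted p of 0.0048 for both. The untreated heterozygous and the treated wild-type mice enter this test beside the 6 mice compared above. BC023719 was at 6.40, 5.33 and 3.08 CPM in untreated wild-type mice, 7.87, 5.86 and 5.04 CPM in treated wild-type mice, 0 in all 3 untreated heterozygous mice, and 2.87, 2.68 and 2.71 CPM in treated heterozygous mice. The change with drug was larger in heterozygous mice by 9.65 on the log2 scale (SE 0.769), a fitted value that depends on the prior count because 1 group is at 0. Summed with its near-identical copy A930015D03Rik, the gene gave 0.58 (edgeR adjusted p = 0.697).

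Gm10260, a copy of the ribosomal protein gene Rps18, was at 143, 206 and 123 CPM in untreated wild-type mice, 215, 466 and 188 CPM in treated wild-type mice, 0.9, 0.928 and 1.51 CPM in untreated heterozygous mice, and 117, 111 and 121 CPM in treated heterozygous mice. Its difference was 5.82 (SE 0.524). Summed over the copies it was -0.87 (edgeR adjusted p = 0.507). In both cases the sum over copies did not pass, and how reads were divided among the copies was not tested.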

How the results depend on the processing

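Trim12a was the single gene called higher with DESeq2's size factors, upper quartile scaling, no filter, a minimum count of 50 and without robust dispersion, and no gene was called lower under these. DESeq2 called 63 higher and 58 lower. The number called higher was 0 with Xist as a covariate, 0 with the acinar level as a covariate, 0 with limma-voom and 0 with the replicate block. With only the 6 libraries compared, 1 gene was called higher, the processed pseudogene Rps3a3 (edgeR adjusted p = 0.00215), and Trim12a had 0.0615. Leaving out each library in turn gave 0 to 1 called higher (1 without wild-type mouse 2, Trim12a) and 0 to 1 lower (1 without wild-type mouse 3, Gm11361). The log2 difference of Trim12a lay between 4.83 (Xist covariate) and 6.20 (acinar covariate). Cdh11 lay between -0.68 (acinar covariate) and -1.31 (without heterozygous mouse 2) and was called under none.

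Same-numbered mice of the 2 groups compared correlated at 0.142, 0.173 and -0.116 in their deviations from the group means. Pairs with different numbers correlated at -0.333 to 0.217. Deviations within a group cancel out, so these values cannot settle whether the replicate numbers pair the mice. With the replicate block Trim12a had an edgeR adjusted p of 0.183 and Cdh11 a difference of -1.07.

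Of 109 named genes, 6 turned direction under some scaling, filter, covariate or left-out library, and none of these 6 had passed the test. Dck was at 0.14 with the acinar covariate, 0.017 with upper quartile scaling, and -0.25 to 0.31 without any 1 library. Rrm1 was at -0.020 with the Xist covariate and -0.071 to 0.27 without any 1 library, and Slc29a1 at -0.74 and -0.10 to 0.40. Snrpn was at -0.12 with the Xist covariate, Rps3a1 at 0.14 with the acinar covariate, and Trim12c at -0.38 to 0.054 without any 1 library. Summed over copies, Gm10260 gave 0.22, Rps13-ps1 0.12 and Rps3a1 0.17. The cause of these turns was not tested. Of 92 lists and families, 45 changed the sign of their median under some setting. How the calls depend on depth was not tested.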

Other observations

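By chromosome, the share of tested genes above 0 was lowest on chromosome 12 (38.3%, with 13.6% below without overlap) and was 42.0% on the X chromosome. Among the autosomes it was highest on chromosome 1, at 59.8%. Within 10 Mb of Cdh11, 256 genes were tested, of which 19 lay above and 22 below without overlap. Within 10 Mb of Trim12a the counts were 21 and 18 of 274. Neither neighbourhood was tested against the rest.

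Rps3a3 was nearly absent from some mice and abundant in others of the same group. It was at 82.0, 1.32 and 0.774 CPM in the untreated heterozygous mice and at 0.918, 380 and 104 CPM in the treated wild-type mice, beside 119, 140 and 109 CPM in the treated heterozygous mice. The sum over its copies was at 484 to 1020 CPM in all 12 libraries.

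Protocadherins leaned lower, with 46 of 59 negative and a median of -0.37, while histone genes leaned higher, with 55 of 64 positive and a median of 0.52. With the acinar covariate the protocadherin median was -0.05, and the histone median turned to -0.48, as it did to -0.09 with the Xist covariate. Zinc finger genes were near the background, with 206 of 353 positive and a median of 0.08. Zfp239, a zinc finger protein, was at 2.47, 5.35 and 4.46 CPM in untreated wild-type and at 12.1, 12.9 and 27.8 CPM in treated heterozygous tumours (2.10).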
